A study of Mus musculus with 6 samples.

Results

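The SOCS family, the suppressors of cytokine signalling, was followed in Th9 cells that had or lacked the transcription factor IRF1. Its members were taken by symbol as Socs1 to Socs7 and Cish, which made 8 of the 41388 genes in the table, and all 8 were expressed well enough to be tested among 11379 genes. The cells were naive CD4+ T cells from C57BL/6 mice of 8 to 12 weeks, either wild type (WT) or Irf1-/-, and each genotype was represented by 3 cultures. Both genotypes received the same treatment: priming through CD3 and CD28, a Th9 medium of IL-2, IL-4 and TGF-β with an antibody against mouse IFN-γ, and recombinant rat IFN-γ at 5 ng/ml, with RNA taken on day 2. There was no culture without IFN-γ in this comparison, so that every value below is a level in IFN-γ-treated cells and no value shows how a member responds to IFN-γ. Which part of the Irf1 gene is missing in the mutant was not given in the sources used here, and reads on Irf1 were reduced and not absent, with normalized counts of 2968, 2907 and 2660 in WT and 1780, 1729 and 1476 in Irf1-/- cultures.

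Cytokines that bind type I and type II cytokine receptors activate Janus kinases (JAKs), which phosphorylate STAT transcription factors. STATs induce SOCS genes, and the SOCS proteins then bind the receptor or the kinase and close a negative feedback loop. All members have a central SH2 domain and a C-terminal SOCS box, which recruits elongins and a cullin to mark bound proteins for degradation. SOCS1 and SOCS3 also block JAK activity directly and are known for restraining IFN-γ signalling and gp130 (IL-6 family) signalling, respectively. CIS (encoded by Cish) and SOCS2 are classical products of STAT5, and CIS restrains IL-2 and IL-4 signalling in T cells. SOCS4 to SOCS7 are less well understood, and SOCS6 and SOCS7 are linked to receptor tyrosine kinase and insulin signalling.

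The libraries held 5639788 to 13348230 reads on genes, and 3 reads corresponded to a normalized count of 1.84 to 4.16. Replicate 3 of each genotype was the larger library. WT replicates 1 and 2 held Y-linked transcripts, whereas WT replicate 3 and all Irf1-/- replicates held Xist, so that sex and genotype overlap in part. The 4 smaller libraries set WT with Y-linked transcripts against Irf1-/- with Xist, so sex and genotype cannot be told apart within them. CD4 T cell markers summed to 15131 to 15563 in WT and 14658 to 15032 in Irf1-/- libraries. The 8 myeloid markers summed to 22.5 to 151 in WT and to 19.8 to 1017 in Irf1-/- libraries, and all 8 were highest in Irf1-/- replicate 2. For Fcer1g this was 4.16 against 3.74 in WT replicate 1, which is 3 reads in each, so that this marker showed no clear rise. NK cell markers were near 0, with 3 of 4 at 0 in every library. In bulk RNA, fewer cells of a type and less RNA per cell cannot be told apart.

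The regions upstream of the members were read first, since STATs and IRFs are the factors that connect cytokine receptors to this family. RefSeq promoter windows (GRCm38.p6) ran from 250 bases before to 50 bases after the gene start. They were read for 4 of the 8 members, Cish, Socs1, Socs3 and Socs4. No window was read for Socs2, Socs5, Socs6 or Socs7, so motifs upstream of these members are not reported. The windows were searched on both strands for the STAT site GAS, written TTCNNNGAA, for its form with 4 bases between TTC and GAA, and for an IRF pair, which is GAAA, then any 2 bases, then GAAA. GAS was present in 8.30% of 32851 windows, the wider form in 6.95% and the IRF pair in 3.44%. The 3 windows that held a match are shown 5′ to 3′ on the strand of the gene, with the matches in capitals. Cish lies at chr9:107296409-107296708 (+), Socs1 at chr16:10785487-10785786 (-) and Socs3 at chr11:117969317-117969616 (-).
Socs3: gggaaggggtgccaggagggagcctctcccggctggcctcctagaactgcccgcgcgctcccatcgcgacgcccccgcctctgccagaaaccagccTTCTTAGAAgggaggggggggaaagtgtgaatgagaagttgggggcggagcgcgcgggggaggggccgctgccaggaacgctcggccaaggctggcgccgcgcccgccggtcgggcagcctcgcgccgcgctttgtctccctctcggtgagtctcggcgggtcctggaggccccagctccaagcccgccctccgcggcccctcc
Socs1: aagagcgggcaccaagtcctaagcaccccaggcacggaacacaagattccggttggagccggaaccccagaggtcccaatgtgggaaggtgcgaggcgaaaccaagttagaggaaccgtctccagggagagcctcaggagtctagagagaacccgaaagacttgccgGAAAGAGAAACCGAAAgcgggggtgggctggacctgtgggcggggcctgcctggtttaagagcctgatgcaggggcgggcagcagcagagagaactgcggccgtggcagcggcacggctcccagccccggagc
Cish: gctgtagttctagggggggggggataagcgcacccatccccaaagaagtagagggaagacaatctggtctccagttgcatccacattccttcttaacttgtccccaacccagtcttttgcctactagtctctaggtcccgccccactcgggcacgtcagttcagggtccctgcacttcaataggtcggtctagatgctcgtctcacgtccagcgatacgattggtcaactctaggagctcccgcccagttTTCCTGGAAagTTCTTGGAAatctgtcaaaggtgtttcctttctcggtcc

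Socs3 held a single GAS match, TTCTTAGAA, from -154 to -146 relative to the gene start. In the Cish window there were 2 GAS matches just after the start, TTCCTGGAA from 1 to 9 and TTCTTGGAA from 12 to 20. Socs1 had no GAS match, and held 2 IRF pairs that share 4 bases, GAAAGAGAAA from -83 to -74 and GAAACCGAAA from -77 to -68, which together form the 16 capitals above. No match to any of these motifs was found in the Socs4 window. The starts are those of RefSeq and can lie inside the Ensembl gene on which reads were counted. A match describes letters only, and occupancy of these sites was not measured in the RNA data.

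Socs3 was the member that differed most between the genotypes. The gene (ENSMUSG00000053113) lies on the - strand of chromosome 11 of GRCm38, from 117966079 to 117970047. Its normalized counts were 171, 198 and 197 in WT cultures and 450, 549 and 387 in Irf1-/- cultures. Every Irf1-/- value was above every WT value. The means were 189 ± 15.4 and 462 ± 81.6 (SD, n = 3), which gave a 2.45-fold higher mean in Irf1-/- cells. On the log2 scale the difference was 1.28 (standard error 0.124, limma adjusted p = 7.21e-05). Among all genes tested, 2.65% had a larger absolute log2 fold change than Socs3, and it ranked 186 in the order of increases.

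The rise in Socs3 was present in each subset of libraries that was tried. In the 4 smaller libraries, where sex and genotype coincide, the log2 fold change was 1.43. It was 0.97 in the 2 larger libraries and 1.21 in the 4 libraries with Xist, which hold WT replicate 3 as the lone WT culture. Socs3 was called in all 19 alternative tests, with a highest adjusted p of 0.00595 from limma without a mean-variance trend. Myeloid markers moved with it in part, since Irf1-/- replicate 2 had both the highest Socs3 and the highest Lyz2, a macrophage lysozyme, at 559. In Irf1-/- replicate 3 Lyz2 was at 7.03 and Socs3 at 387, and in WT replicate 2 Lyz2 was at 96.2 and Socs3 at 198. The part of myeloid cells in the Socs3 difference was not tested. Without Irf1-/- replicate 2 the log2 fold change of Socs3 was 1.15 (standard error 0.113).

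**Figure D1:**
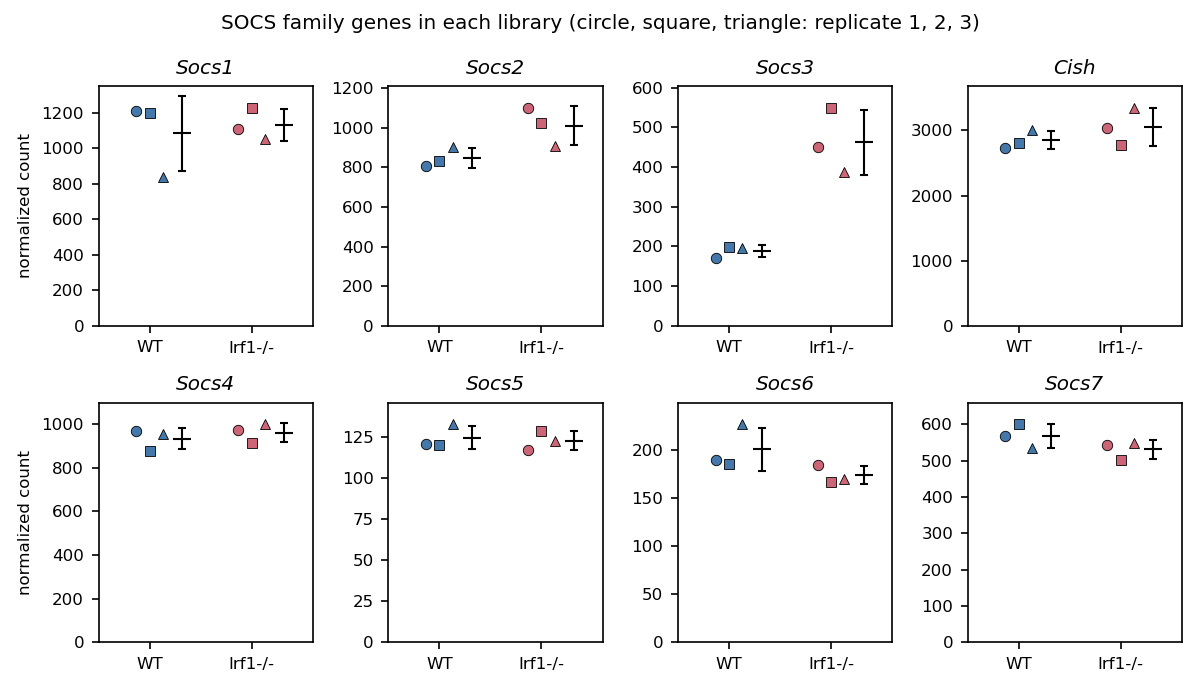
Normalized count of each SOCS family gene in the 3 WT (blue) and 3 Irf1-/- (red) libraries, with each axis starting at 0. Circles, squares and triangles are replicates 1, 2 and 3, and the bars beside them give the mean ± SD; in Socs3 the Irf1-/- points, 387 to 549, lie above the WT points, 171 to 198.

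Socs1, which encodes the main feedback inhibitor of IFN-γ receptor signalling, did not pass the test. It lies on the - strand of chromosome 16 from 10782240 to 10785536 (ENSMUSG00000038037, GRCm38). Its normalized counts were 1212, 1202 and 840 in WT and 1110, 1229 and 1052 in Irf1-/- cultures. The ranges overlapped, because WT replicate 3 lay below all other libraries while WT replicates 1 and 2 lay close to the highest Irf1-/- culture. The log2 fold change was 0.08 (95% interval -0.20 to 0.35, limma adjusted p = 0.702), an interval from 0.870-fold to 1.28-fold of the WT level that holds for the fit of all 6 libraries without regard to sex.

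The Socs1 comparison turned on WT replicate 3. Among the 4 libraries with Xist, where that culture is the lone WT sample, the log2 fold change was 0.42. A fit with Y-linked expression as covariate gave 0.40, and there too the genotype difference rested on WT replicate 3, since the other WT cultures alone held Y-linked transcripts at a high level. Both values passed limma's threshold only on the assumption that a lone WT sample varies like the other samples. In the 4 smaller libraries, which leave out replicate 3 of both genotypes, Socs1 differed by -0.05 on the log2 scale. Whether the low Socs1 of WT replicate 3 goes with sex or with that library cannot be told apart here.

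Cish and Socs2, the STAT5-induced members, had small differences. Cish (ENSMUSG00000032578, chromosome 9, 107296026 to 107302784, + strand, GRCm38) had the highest normalized counts of the family, 2736, 2806 and 3011 in WT and 3036, 2771 and 3345 in Irf1-/- cultures. These ranges overlapped, and the log2 fold change of 0.09 (95% interval -0.06 to 0.25, limma adjusted p = 0.372) had an interval from 0.958-fold to 1.19-fold of the WT level in the fit of all 6 libraries without regard to sex. Over the 20 alternatives the log2 value ran from 0.00 to 0.16. Reads of Gm17040, a pseudogene on the opposite strand that overlaps Cish in part, reached a normalized count of at most 21.6. Whether the counting used strand was not stated.

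Socs2 (ENSMUSG00000020027, chromosome 10, 95385362 to 95417180, - strand, GRCm38), a regulator of growth hormone and STAT5 signalling, had normalized counts of 806, 832 and 904 in WT and 1101, 1025 and 906 in Irf1-/- cultures. The groups did not overlap, but the closest values, both from replicate 3, were 904 and 906. Its log2 fold change was 0.25 (95% interval 0.08 to 0.43, standard error 0.0792, limma adjusted p = 0.0424), a 1.19-fold higher mean in Irf1-/- cells. The call was lost in 8 of 19 alternative tests, among them DESeq2 on the recovered reads (DESeq2 adjusted p = 0.0520) and the 4 libraries with Xist, where the log2 fold change was 0.16 with a lone WT culture. Among the 4 smaller libraries the difference was 0.37, and between the larger ones 0.00.

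The remaining members, Socs4 to Socs7, did not pass the test. Socs4 and Socs5, which have long N-terminal regions and are linked to EGF receptor and IL-4 receptor signalling, had log2 fold changes of 0.04 and -0.02, with limma adjusted p = 0.681 and 0.920. Socs4 ran from 876 to 970 in WT and from 911 to 998 in Irf1-/- cultures, and Socs5 from 120 to 133 and from 117 to 129. For Socs7 the normalized counts were 569, 600 and 534 in WT and 543, 501 and 549 in Irf1-/- cultures, with a log2 fold change of -0.10 (limma adjusted p = 0.377).

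Socs6 was the lowest member per exon length in both genotypes. It had normalized counts of 190, 185 and 226 in WT and 184, 166 and 169 in Irf1-/- cultures. The groups did not overlap, by a gap from 184 to 185, and the log2 fold change of -0.20 (95% interval -0.44 to 0.03, limma adjusted p = 0.199) did not pass the test. In the 2 larger libraries it was -0.42, and in the 4 smaller libraries -0.10.

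Across the family, 2 of 8 members, Socs2 and Socs3, were called higher and 0 lower in Irf1-/- cells. Over all genes tested, 11.4% were called higher and 12.4% lower. Values of the genotypes did not overlap for 3 of 8 members (Socs2, Socs3 and Socs6), while this held for 40.5% of all genes. With Y-linked expression as covariate, or in the libraries with Xist, 2 members were again called higher, but these were Socs3 and Socs1, and both fits rest on WT replicate 3 as the lone informative WT culture. Apart from Socs3, the 7 members had absolute log2 fold changes under 0.26, against a median of 0.17 for the absolute log2 fold change of all genes.

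**Figure D2:**
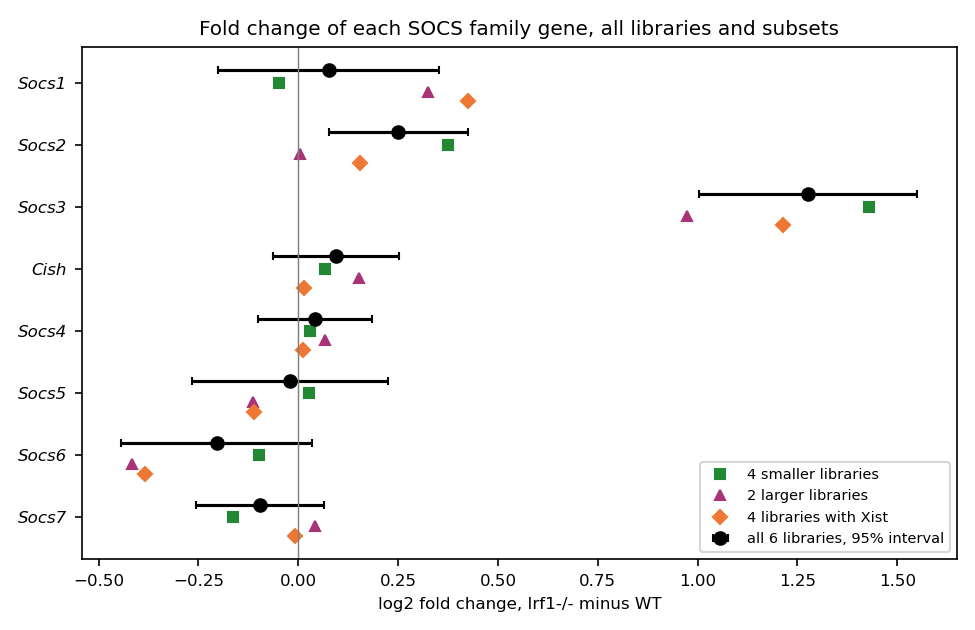
Log2 fold change (Irf1-/- minus WT) of each member with all 6 libraries (black, 95% interval from limma) and in the 4 smaller (square), the 2 larger (triangle) and the 4 Xist-holding libraries (diamond). Socs3 lies at 0.97 or more in every subset, whereas Socs1 lies between -0.05 and 0.42.

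Levels were next compared between members per exon length, as reads per kilobase of exon scaled to the reads on genes in the library (RPKM), with the length taken as all annotated exons of a gene, so that exons that are rarely used lower the value. In WT cells the order was Cish at 55.2 ± 1.84, Socs1 at 46.5 ± 9.79, Socs4 at 16.9 ± 0.836, Socs2 at 11.1 ± 0.475, Socs7 at 9.73 ± 0.725, Socs3 at 8.12 ± 0.622, Socs5 at 2.42 ± 0.0919 and Socs6 at 2.19 ± 0.205 (RPKM, SD, n = 3). Neighbours in this order did not overlap over the 3 cultures, except for Socs5 and Socs6. In Irf1-/- cells Socs3, at 20.3 ± 3.74, moved from rank 6 to rank 3, where its range overlapped that of Socs4 at 17.7 ± 0.695. The other members kept their order relative to one another.

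**Figure D3:**
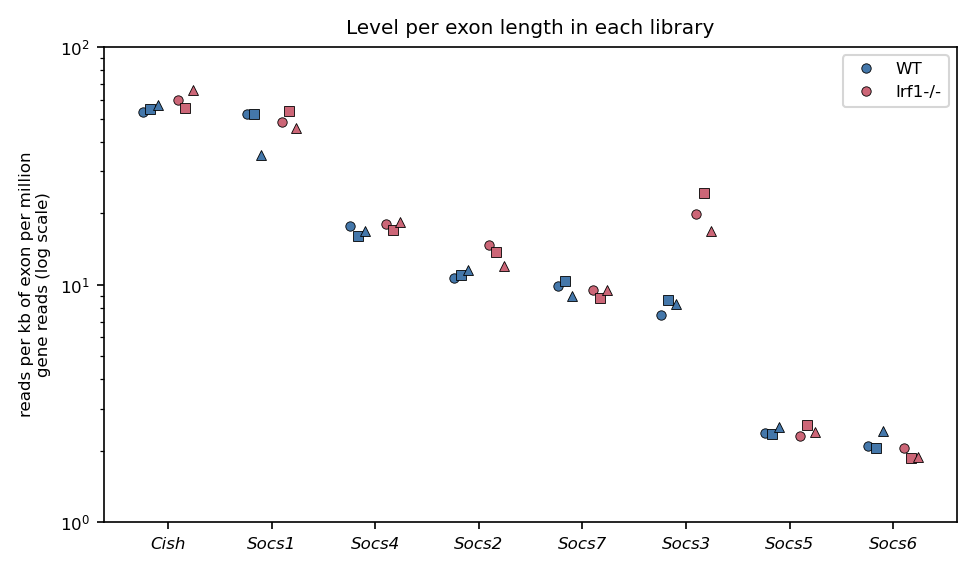
RPKM of each member (log axis) in WT (blue) and Irf1-/- (red) libraries, ordered by the WT mean, with circles, squares and triangles for replicates 1, 2 and 3. Cish and Socs1 are the highest members in both genotypes, and Socs3 is at 8.12 in WT and 20.3 in Irf1-/- cells on average.

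The summed RPKM of the family was 152 ± 7.92 in WT and 175 ± 2.66 in Irf1-/- cells (SD, n = 3), with 143 as the lowest WT value, in replicate 3. Of this sum, Socs3 made up 4.76% to 5.80% in WT and 9.80% to 13.7% in Irf1-/- cultures. Cish and Socs1 remained the main components, with means of 36.4% and 30.4% in WT and 34.5% and 28.2% in Irf1-/- cells.

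Ratios between members were also taken within each library, on normalized counts plus 1. The log2 ratio of Socs3 to Socs1 was -2.82, -2.59 and -2.09 in WT and -1.30, -1.16 and -1.44 in Irf1-/- cultures, and that of Socs3 to Cish was -3.99, -3.82 and -3.93 in WT and -2.75, -2.33 and -3.11 in Irf1-/- cultures. Both ratios were higher in all 3 Irf1-/- cultures, by 1.20 and 1.18, with p = 0.1 in an exact two-sided permutation test, the smallest that 3 against 3 allows, and adjusted p = 0.2 over the 4 ratios. Socs2 to Cish differed by 0.16 (exact permutation p = 0.4) and Socs1 to Cish by -0.02 (exact permutation p = 1), and both overlapped between the genotypes.

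**Figure D4:**
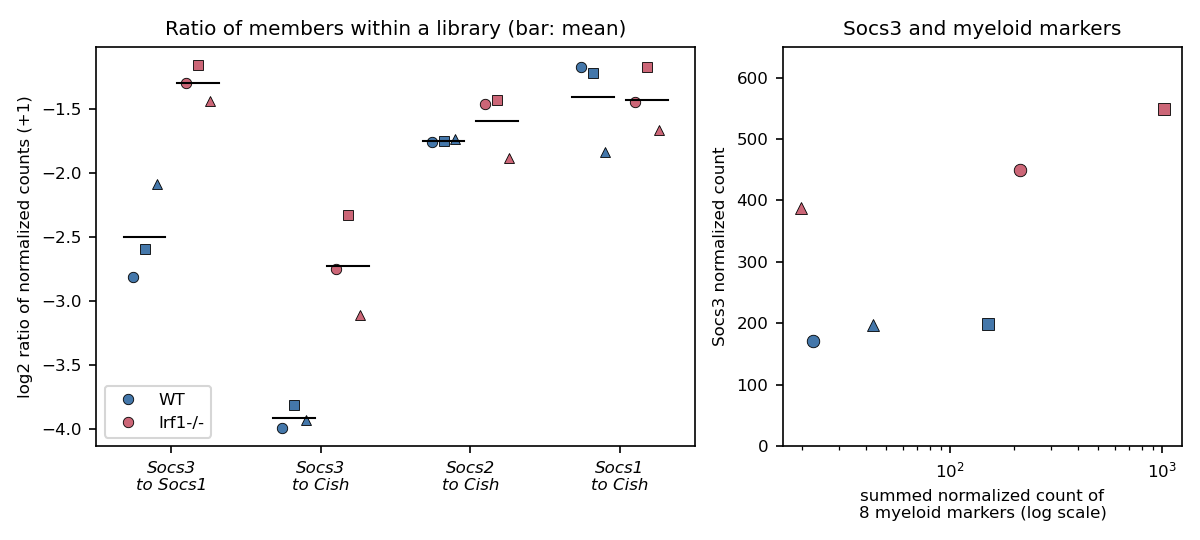
Left, log2 ratio of normalized counts of 2 members within each library, with the mean as a bar; the Socs3 ratios of Irf1-/- libraries (red) lie above those of WT libraries (blue). Right, normalized count of Socs3 against the sum of 8 myeloid markers (log axis), in which Irf1-/- replicate 3 has Socs3 at 387 and a marker sum of 19.8.

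The kinases and transcription factors around the family were then read from lists of pathway genes. Of the 4 JAKs 0 were called, beside 11.4% of all genes called higher and 12.4% lower, and 1 was called higher under quantile normalization. They had log2 fold changes from 0.01 for Tyk2 to 0.12 for Jak3, the kinase of the common gamma chain. Among the STATs, Stat3, the transducer of IL-6 and IL-10 signalling, fell from 3886, 4108 and 4461 in WT to 3131, 3109 and 3340 in Irf1-/- cultures, a log2 fold change of -0.38 (limma adjusted p = 0.00167). In these cells Stat3 was thus lower while Socs3 was higher. Stat5a fell by 0.22 on the log2 scale, whereas Stat5b, at 0.01, Stat6, at -0.06, Stat4, at 0.05, and Stat2, at 0.28, did not pass. The Stat5a call was lost in 3 of 19 alternative tests, which were those without a trend, without WT replicate 2 and in the 4 libraries with Xist.

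Receptors and cytokines moved in both directions, and over all genes 12.4% were called lower and 11.4% higher. Of 19 receptor genes tested, 4 were called lower and 3 higher, led by Il7r (log2 fold change -1.33) and Il12rb1 (-1.29) among the former and by Il4ra, the IL-4 receptor chain (0.77), and Il2rb (0.38) among the latter. The higher count was 1 without WT replicate 1, WT replicate 2 or Irf1-/- replicate 1, 5 without WT replicate 3, and 0 without a trend or in the libraries with Xist, where the lower count was 2. Of 14 cytokine genes tested, 3 were called lower, which were Il12a (-3.67), Il4 (-2.15) and Il2 (-1.15), and 3 higher. The log2 fold change of Il2 was -1.61 in the 4 smaller libraries but -0.24 in the 2 larger ones. Il10, an activator of STAT3 signalling, was at 2.50, 3.61 and 3.07 in WT, close to the level of 3 reads, and at 20.3, 37.4 and 25.6 in Irf1-/- cultures. Il10 and Il4 passed the filter on low values only through the genotype in which they were high, so that their calls add no support to the counts of the lists that hold them. Il9, which also signals through JAKs, and Il24 rose by 1.75 and 1.04 on the log2 scale. The Il2rb call was lost in 8 and the Il24 call in 7 of 19 alternative tests, that of Il4ra in 2, and those of Il7r (without a trend) and Il2 (in the libraries with Xist) in 1 each.

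Of 14 inhibitors of JAK and STAT signalling outside the family, 5 were called lower, 0 higher and 9 did not pass, beside 12.4% of all genes called lower. The lower count was 8 without Irf1-/- replicate 3 or in the 4 smaller libraries and 3 in the libraries with Xist. Usp18, an interferon-induced inhibitor of the type I interferon receptor, fell from 66.1, 69.7 and 68.8 in WT to 14.3, 22.2 and 21.7 in Irf1-/- cultures, a log2 fold change of -1.79 (limma adjusted p = 0.000301). Ptprc, which encodes the phosphatase CD45, and Ptpn11, which encodes SHP2, fell by 0.41 and 0.39 on the log2 scale. Median log2 fold changes were -0.24 for these 14 genes, 0.06 for the 8 SOCS members and -0.00 for all genes tested.

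Of 6 partners of the SOCS box, 1 was called higher and 0 lower, beside 11.4% and 12.4% of all genes. This was Elob, which encodes elongin B, with a log2 fold change of 0.37 (limma adjusted p = 0.00643), and this call was lost in the libraries with Xist. Eloc, Cul5, Cul2, Rnf7 and Rbx1 had log2 fold changes from -0.17 to 0.06 and did not pass.

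Genes commonly induced through the STATs that also induce SOCS genes were read as a last group, and several stand in more than 1 list. The shares over all genes, 12.4% lower and 11.4% higher, apply to these counts too. Of 14 genes listed as STAT5-inducible, 4 were called lower and 4 higher. Cdkn1a (-0.82), Bcl6 (-0.80) and Ccnd2 (-0.22) were among the former and Lta (0.74), Bcl2 (0.66) and Il2rb (0.38) among the latter. Bcl6 is known as a gene that STAT5 represses in T cells, so the lower count holds a gene that does not belong in this list. Leaving out 1 library moved these STAT5 counts, to 1 lower and 2 higher without WT replicate 2, to 2 and 2 without WT replicate 1, Irf1-/- replicate 1 or Irf1-/- replicate 2, and to 7 higher without WT replicate 3, and they were 1 and 2 without a trend. Of 11 STAT3-inducible genes, 3 were called higher, Il24, Batf (0.38) and Il10, with the limit just given for Il10, and 0 lower, while the higher count was 1 in the libraries with Xist and the lower count 1 without WT replicate 3 and 2 in the 4 smaller libraries. STAT6-inducible genes had 5 higher and 2 lower calls among 8 tested, with Il9, Il24 and Il4ra leading the increases and Il4 and Ccr8 (-0.25) the decreases. These STAT6 counts fell to 2 higher and 1 lower without a trend and to 1 each in the libraries with Xist, and the higher count was 3 without WT replicate 1, WT replicate 2 or Irf1-/- replicate 2. The lower count was 1 in 5 of the 6 fits that left out a library, the exception being WT replicate 3. The lists are small, were written from general knowledge and do not measure STAT activity. Of the 32 genes called in the pathway lists, 21 lost their call in the 4 libraries with Xist, where a single WT culture remains, and 10 kept it in all the alternative tests run on them, 18 or 19 for each gene, among them Stat3, Il12rb1, Il9, Usp18 and Ptprc.

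**Figure D5:**
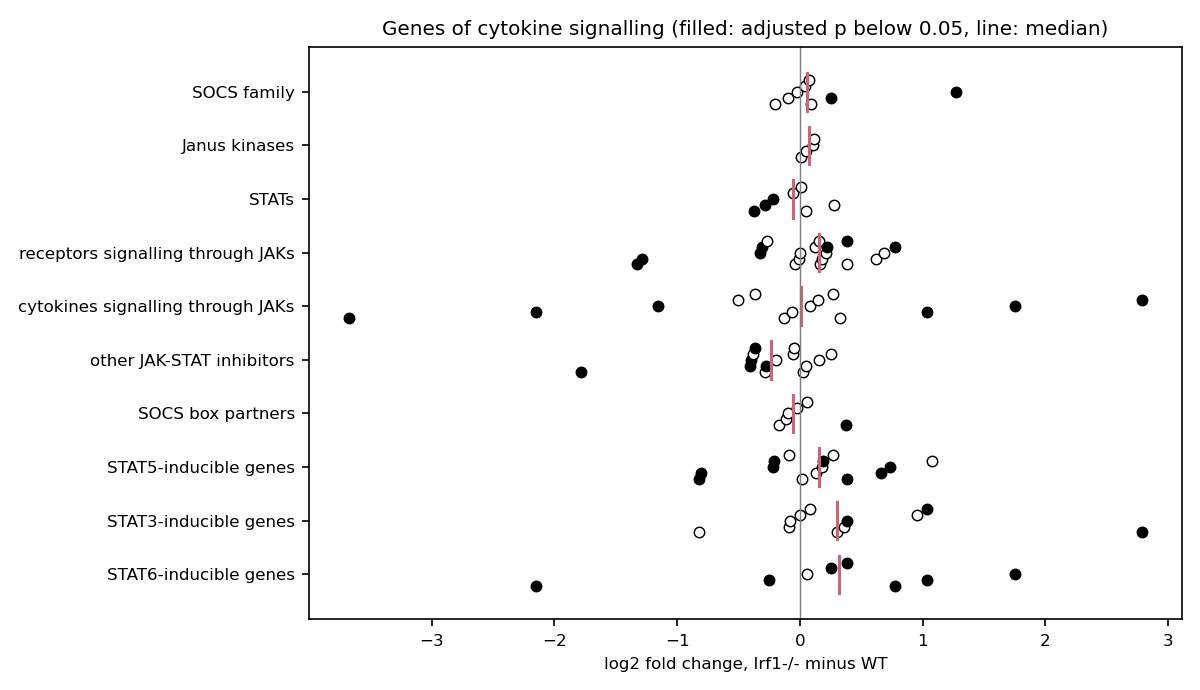
Log2 fold change (Irf1-/- minus WT) of the tested genes of the SOCS family and of each list of cytokine signalling genes, with filled circles for an adjusted p below 0.05 from limma and a red line at the median of each list. The SOCS family has 2 filled points, Socs2 at 0.25 and Socs3 at 1.28, and the list of other inhibitors has 5, all below 0.

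Genes with the most similar pattern over the 6 libraries were taken from 8199 genes whose normalized counts averaged 100 or more, by Pearson's r of the log2 values, as a description in which the points share their genotype and library size. For Socs3 these were Txnip (r = 0.998), a regulator of thioredoxin, Myl6 (0.998), a myosin light chain, and Dgat2 (0.997), an enzyme of triglyceride synthesis. Txnip ran at 112, 131 and 125 in WT and 217, 247 and 197 in Irf1-/- cultures, so that its highest value, like that of Socs3, was in Irf1-/- replicate 2. As many as 621 genes had r above 0.9 with Socs3. For Cish they were Pdp2 (0.998), Golga2 (0.993) and Dazap2 (0.985), for Socs2 Cep162 (0.992), Ndufc2 (0.990) and Diablo (0.988), and for Socs1 H2afv (0.982), Rfxap (0.972) and Slfn10-ps (0.972). H2afv had 273, 261 and 211 in WT and 247, 275 and 244 in Irf1-/- cultures, with its lowest value in WT replicate 3 as for Socs1.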

How the data were processed

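RNA was measured in 3 WT and 3 Irf1-/- cultures. The authors aligned reads with STAR 2.4.0b to GRCm38, assigned them to Ensembl genes by featureCounts and used DESeq2 1.12.3; strand and the treatment of reads matching several genes were not given in the sources used here. The authors deposited a signal in normalized counts (reads over a library's size factor), and whole reads were recovered for 100% of non-zero values (tolerance 0.001). Symbols, coordinates and exon lengths came from a GENCODE annotation of GRCm38, and 40340 of 41388 genes had a symbol.

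Genotypes were compared in R 4.3.3 with limma 3.58.1 (eBayes with trend) on log2 of the normalized count plus 1, for the 11379 genes averaging 10 or more, with Benjamini-Hochberg adjustment over them and a call at an adjusted p below 0.05. Fold changes on this scale understate low genes. On recovered reads, edgeR 4.0.16 called 1417 genes lower and 1261 higher. The 3 cultures per genotype were described in the study as independent. Within a genotype, counts differed by a chi-square per degree of freedom of 1.28 (WT) and 1.82 (Irf1-/-) between replicates 1 and 2. In pairs with replicate 3 it was 5.85 to 7.21, where 1 stands for sampling noise alone. None were counted as 1 sample. Whether replicates 1 and 2 of a genotype share a source was not tested, and if they do, n = 3 overstates the replication. The scripts were tested on simulated data. Other alternatives were pseudocounts, filters, scalings, DESeq2 1.42.0, left-out libraries, sex and library size. All members were named, with the 3 most changed called genes of each list and direction, all JAKs, STATs and SOCS box partners, the 3 most similar genes and the nearest tested genes. A gene of the pathway lists is not reported here. The members and lists were chosen with earlier results of these data known.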

Additional observations from a re-analysis of the deposited data

How the results depend on the processing

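None of the alternatives ended the Socs3 call, and its log2 fold change was furthest from the main value in the 2 larger libraries, at 0.97. Both of these held Xist, whereas the 4 smaller libraries differed in sex between the genotypes. Library size and sex therefore cannot be told apart in this shift. Leaving out 1 library at a time gave 1.15 to 1.40. The number of members called higher was 1 (Socs3) instead of 2 without a mean-variance trend, in DESeq2, and in 4 of 6 fits that left out a library, where it ranged from 1 to 2. The members without a call crossed 0 in places. With single libraries left out, Socs1 ranged from -0.10 to 0.17, Socs4 from -0.00233 to 0.0790 and Socs5 from -0.0554 to 0.0254 on the log2 scale. In the 4 smaller libraries Socs1 was at -0.0473 and Socs5 at 0.0260, and in the 2 larger libraries Socs7 was at 0.0410. The cause of these shifts was not tested.

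With the replicate number as a replicate block, the log2 fold change of Socs3 was 1.28 (limma adjusted p = 1.18e-09) and that of Socs2 was 0.25 (limma adjusted p = 0.00658), the number of members called higher was again 2, and no member changed its call. Receptors called higher rose to 6 and STAT3-inducible genes called higher to 5. Over all genes, 2116 were then called lower and 1893 higher. The numbers do not pair the cultures by the labels, although each sample correlated best with its own number (correlations of deviations from the genotype means of 0.092, 0.27 and 0.32). Calls over all genes were 1406 lower and 1293 higher in the main comparison, 807 and 928 without a trend, 403 and 407 in the 4 libraries with Xist, and 1099 and 856 with Y-linked expression as covariate. Without WT replicate 1 they were 824 and 814, without WT replicate 2 824 and 805, and without Irf1-/- replicate 2 895 and 810. The median standard error over genes was 0.10, against a log2 fold change of 0.25 for Socs2.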

Other observations

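The nearest tested genes on either side of each member were read to see whether a change extended over the locus. Next to Socs3, Pgs1, a phospholipid synthase gene 16244 bases away, was at 953 ± 37.1 in WT and 1135 ± 74.8 in Irf1-/- cells (SD, n = 3), a log2 fold change of 0.25 (limma adjusted p = 0.0188), and Tha1 on the other side had 0.71 at a normalized count of 11.1 to 18.2 and did not pass (adjusted p = 0.152). Next to Cish, Hemk1, which encodes a methyltransferase, was at 1207 ± 60.4 and 1533 ± 42.9, a log2 fold change of 0.35 (limma adjusted p = 0.00207). Next to Socs2, Cradd was higher by 0.52 and Mrpl42 fell by 0.26 on the log2 scale, with adjusted p = 0.0236 and 0.0389. Next to Socs1, Tnp2, 2399 bases away, was at 22.3 ± 6.99 and 45.5 ± 7.82 (adjusted p = 0.0198). Wdhd1, 73 bases from Socs4, fell by 0.20 on the log2 scale (adjusted p = 0.0322), and the neighbours of Socs5, Socs6 and Socs7 did not pass. Socs3 and Socs7 share a chromosome with Irf1, at 64.2 and 43.6 Mb from it.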
